A study of Arabidopsis thaliana with 6 samples.

Results

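The transcripts of the chloroplast genome were examined on Affymetrix ATH1 arrays hybridised with RNA of *gis5* and WT seedlings. The members were the probe sets of 1 unbroken run of id numbers, from that of *rpl32* to that of *atpH*, in which the array holds chloroplast genes, and none was dropped, because no annotation in the block gave a nuclear or a mitochondrial gene. This gave 67 of the 22746 probe sets tested. The platform annotation named 64 of them, each with a gene that the RefSeq table (assembly TAIR10.1) places in the plastid, and 2 (244979_at and 244990_s_at) stayed without a name. The other 1 is counted in the block and not reported singly. Of the 67, 6 match a gene that lies in 2 copies in the chloroplast genome, so that their signal is the sum of both copies. Coordinates are left out.

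The *gis5* mutant carries a point mutation in *POLD1*, which encodes the catalytic chain of the nuclear replicative polymerase δ. The mutation was induced with ethyl methanesulfonate, and the line was used in the Columbia background after backcrosses to WT. Both genotypes were 10-d-old whole seedlings with leaves and roots, grown on MS plates under continuous light at 23°C by the series description or 24°C by the methods, with no further treatment. Each genotype had 3 biological replicates, 1 array per replicate and 6 arrays in all, and *gis5* is represented by a single allele. Values are MAS5 signals, a linear brightness per probe set that the authors scaled to the same trimmed mean on each array, so that they count no molecules, and the number of arrays limits the precision. They are given as arrays *gis5* 1 to 3 and WT 1 to 3 after the replicate numbers of the labels. The signal of one probe set cannot be set against that of another, because probes differ in affinity.

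The chloroplast genome keeps the genes for the core subunits of the photosystems, the cytochrome b6f complex, the ATP synthase and the NADH dehydrogenase-like (NDH) complex, the large subunit of Rubisco, part of the plastid ribosome and the plastid-encoded RNA polymerase. Most of these genes are read together with their neighbours into long RNAs that are then cut and trimmed. Photosynthesis genes are read mainly by the plastid-encoded polymerase, and a few genes such as *accD* and the *rpoB* unit by a nuclear-encoded one. Standard Affymetrix labelling starts at poly(A) tails. Plastid RNAs mostly lack a stable tail, and a tail marks them for decay, so the signal of these probe sets favours the polyadenylated fraction and is not a direct measure of transcript abundance. In RNA of whole seedlings, fewer green cells and less plastid RNA per cell cannot be told apart.

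Chloroplast probe sets ran from dim to bright, and detection calls, which tell signal from background, were not used. The mean WT signals of the members ran from 27.0 (*rpoB*) to 38941 (*atpE*). By the mean over all 6 arrays, 61 of the 67 lay above the median of all probe sets tested. The block held 2.23%, 2.62% and 2.09% of the summed signal of the *gis5* arrays and 1.97%, 2.62% and 1.92% of that of the WT arrays. The highest share in each genotype came from the array numbered 2, and the ranges of the genotypes overlapped.

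On most arrays the majority of the members shifted in the same direction, though not all of them moved together. The median deviation of the 67 members from their 6-array mean, on the scale of log2(signal + 16) used for all comparisons, was 0.06, 0.46 and −0.19 for *gis5* 1 to 3 and −0.32, 0.38 and −0.20 for WT 1 to 3. On *gis5* 2, 62 members lay above their mean and on WT 2, 63, against 11 on *gis5* 3 and 15 on WT 1. *gis5* 2 or WT 2 was the highest array for 76.1% of the members and for 25.3% of all probe sets. WT 1 was the lowest array for 31 members and WT 3 for 22, together 79.1% of the block and 37.0% of all probe sets. Neither *gis5* 2 nor WT 2 was the lowest for any member. The first component of the residuals within genotypes held 58.0% of their variance and the second 28.9%. These shares were not computed for all probe sets, so they have no background. The median SD within genotypes was 0.54 for the members, 0.27 for all probe sets and 0.19 for all probe sets above the median signal, on the log2 scale.

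**Figure D1:**
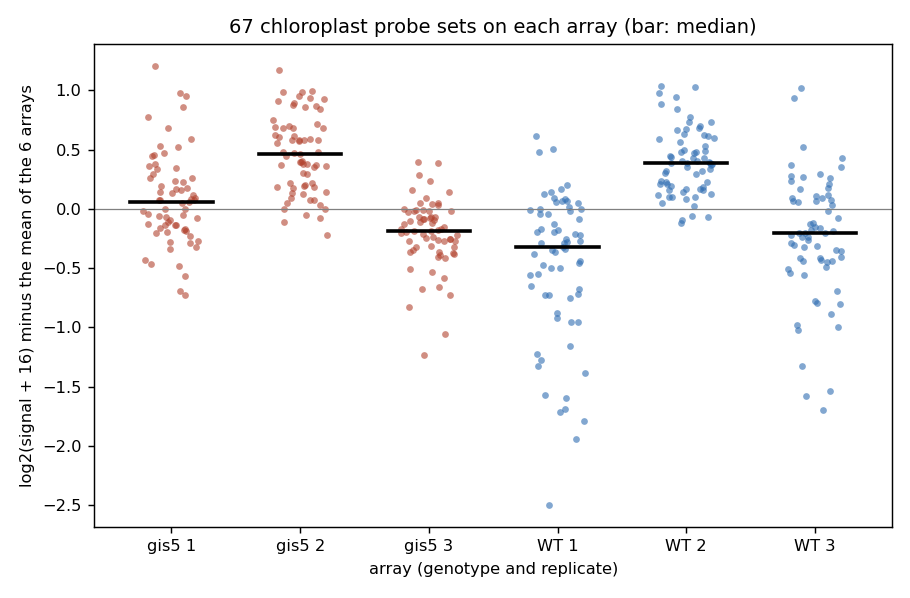
Deviation of each of the 67 chloroplast probe sets (points) from its mean over the 6 arrays, in log2(signal + 16), on each *gis5* (red) and WT (blue) array, with the median as a black bar. The medians of *gis5* 2 (0.46) and WT 2 (0.38) lie above 0 and those of WT 1 (−0.32) and WT 3 (−0.20) below it, so that arrays of 1 genotype differ by more than the genotypes do.

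The probe set for cytoplasmic 25S rRNA, another RNA without a stable tail, read 4166, 4464 and 2734 for *gis5* 1 to 3 and 3219, 7078 and 5348 for WT 1 to 3. In each genotype it was highest on the array numbered 2, as the chloroplast block was, and WT 3 had a high 25S signal with a low chloroplast block. The 5S rRNA control was dim and did not share this order. It read 40.6, 39.1 and 43.6 for *gis5* 1 to 3 and 50.8, 45.4 and 15.7 for WT 1 to 3. The actin control, whose 3′ signal over its 5′ signal grows as RNA is degraded, had ratios of 4.54, 4.99 and 4.39 in *gis5* and 3.30, 5.29 and 6.42 in WT, lowest on WT 1. The part of rRNA carry-over or RNA quality in the chloroplast signals was not tested.

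A set of genes was far lower on WT 1 than on the other 5 arrays. For 9 members WT 1 lay at least 2-fold below the lowest of the others, which is 13.4% of the block against 2.19% of all probe sets and 0.158% of those above the median signal. The 2-fold rule and these names were chosen after the values were seen. For *psaJ*, a small subunit of photosystem I, the arrays read 16486, 18582 and 15860 in *gis5* and 2128, 20666 and 14576 in WT. WT 1 stood 6.85-fold below the next array, while the *gis5* arrays and the other WT arrays overlapped. For *atpF*, a subunit of the membrane part of the ATP synthase, they read 2435, 3416 and 1786 in *gis5* and 475, 3837 and 1556 in WT, again with WT 1 alone at the bottom. The other 7 were *petD* and *petL* of the cytochrome b6f complex, *ndhB* and *ndhD* of the NDH complex, *rpoC1* of the RNA polymerase, *psbB* of the photosystem II core and *cemA*, an envelope membrane protein gene, with WT 1 between 2.05-fold and 3.86-fold below the next array.

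WT 3 was at least 2-fold below the others for 2 neighbouring genes of the large ribosomal subunit. This is 2.99% of the block against 2.43% of all probe sets and 0.044% of those above the median signal. The count was thus near the share of all probe sets, and above that of the brighter ones, to which both genes belong. *rpl14* read 4048, 4532 and 2403 in *gis5* and 3214, 3927 and 853 in WT, and *rpl16* read 2493, 4178 and 1806 in *gis5* and 2144, 3543 and 741 in WT.

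**Figure D2:**
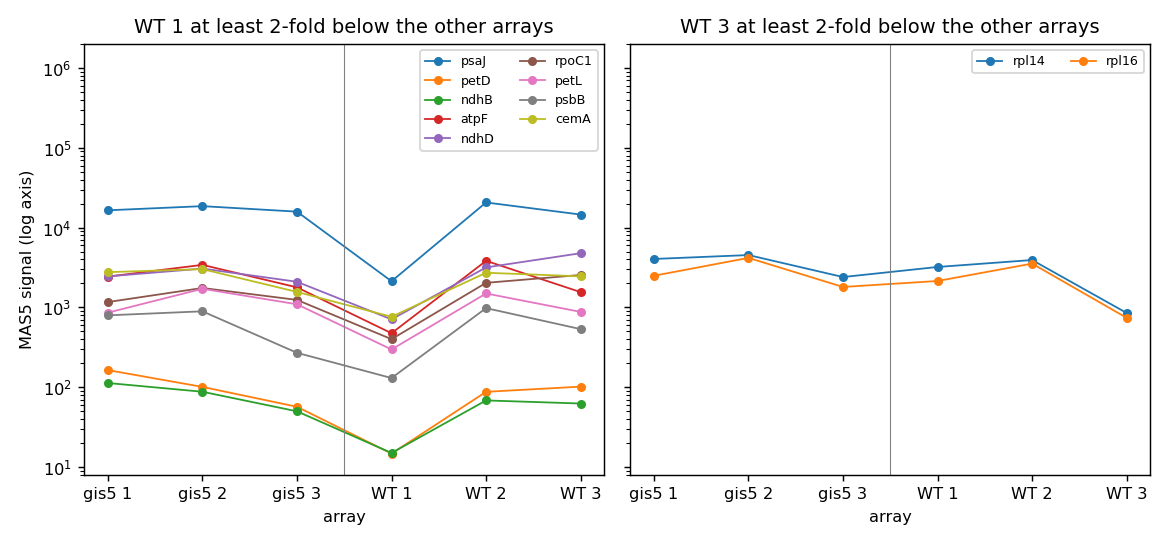
MAS5 signal (log axis) on each array of the 9 chloroplast genes for which WT 1 lay at least 2-fold below the lowest other array (left) and of the 2 for which WT 3 did (right), with a line per gene. The genes were chosen for this pattern, which is deepest for *psaJ* (2128 on WT 1) in the left panel and *rpl14* (853 on WT 3) in the right.

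The comparison of *gis5* with WT asked whether chloroplast transcripts differed in the mutant. It was tested with limma over all 22746 probe sets with Benjamini-Hochberg adjustment. No member reached an adjusted p of 0.05, where 0.0044% of all probe sets did so as higher and 0% as lower. At an unadjusted p under 0.05 there was 1 of the 67, *psbE*, lower in *gis5*, against 3.06% of all probe sets lower and 5.99% higher, so that the share of the block (1.49%) lay below the background of 9.05% in either direction. No member differed by 2-fold or more, which 2.31% of all probe sets did. The genotypes did not overlap for 3 members. The *gis5* arrays were all higher for 1, *rps18*, as for 9.13% of all probe sets, and all lower for 2, *psbE* and *psbF*, as for 6.79%.

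The log2 ratios of the members lay between −0.48 (*psbE*) and 0.97 (*psaJ*). Of the 67, 54 were above 0 and 13 below, with a median of 0.18, while 53.6% of all probe sets were above 0 with a median of 0.03. This median rested on single arrays. It was 0.02 without *gis5* replicate 2, with 34 members above 0, and 0.06 without WT replicate 1, with 40 above 0. Without WT replicate 2 it was 0.44, with 58 above 0. The 95% interval of the log2 ratio lay within 2-fold either way for 30 members (44.8%), against 68.1% of all probe sets. A 2-fold difference was not excluded for the other 37.

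**Figure D3:**
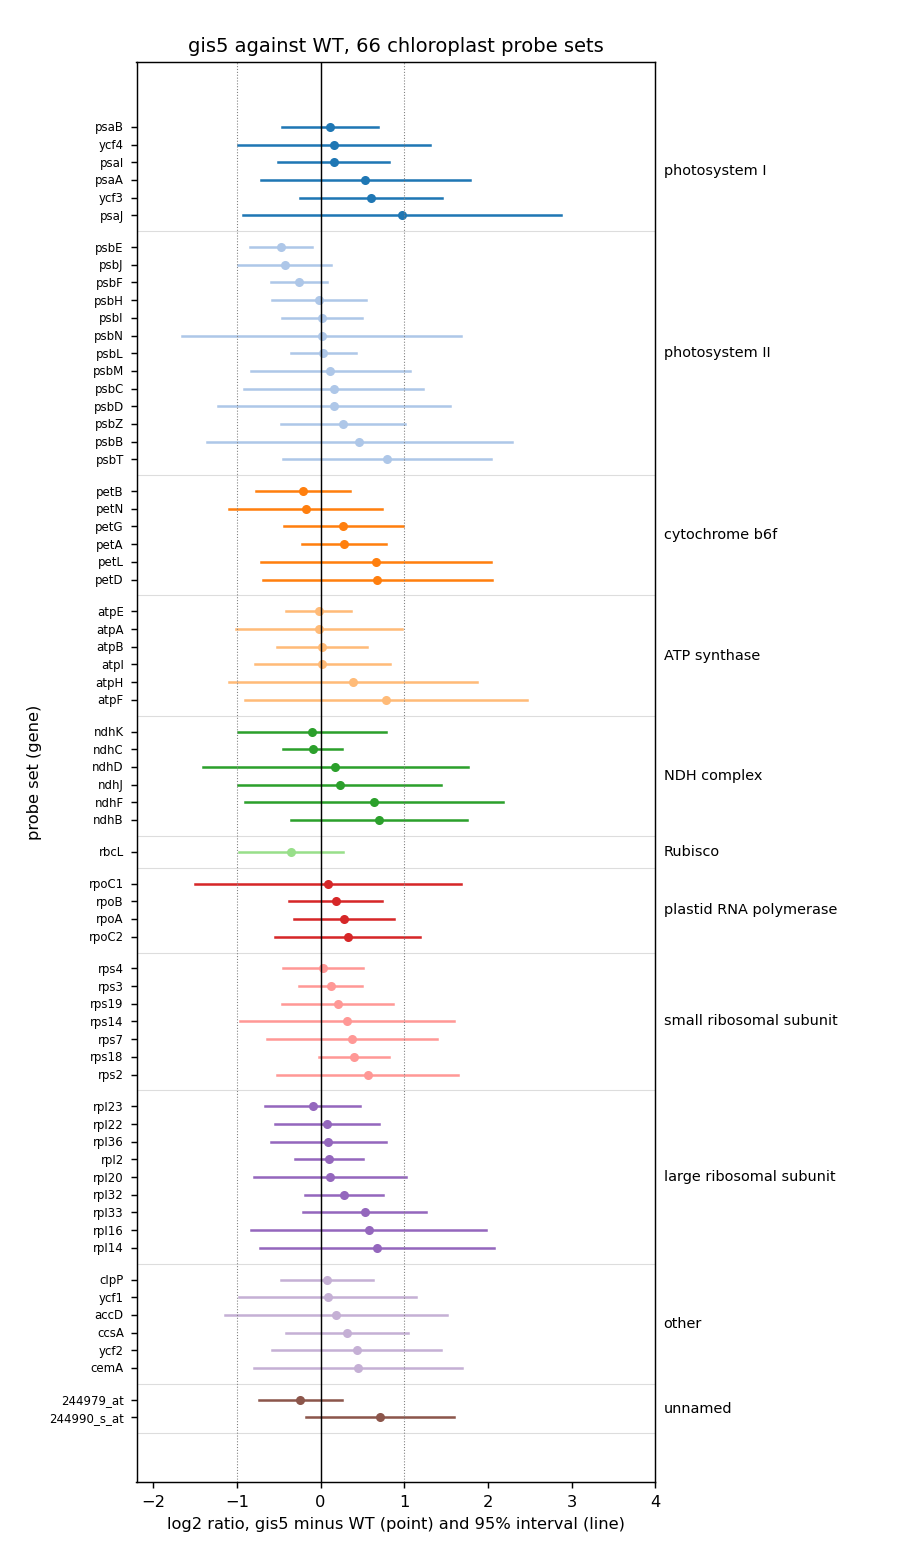
Log2 ratio of *gis5* to WT (points) with its 95% interval from limma (lines) for 64 named and 2 unnamed chloroplast probe sets. They are grouped by the complex that the product belongs to or helps to assemble, with dotted lines at 2-fold either way. The interval of *psbE* (−0.85 to −0.11) lies below 0, and the others include 0.

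Photosystem II held the 2 lowest log2 ratios of the block, those of *psbE* and *psbJ*. Of its 13 members, 9 were above 0 and 4 below, with a median of 0.03, which was −0.15 without WT replicate 1 (5 above 0) and −0.14 without *gis5* replicate 2 (3 above 0). *psbE* (244964_at), which encodes the alpha subunit of the b-type cytochrome of photosystem II, read 6053, 5682 and 5133 in *gis5* and 7031, 8379 and 8099 in WT. All *gis5* arrays lay below all WT arrays, by a modest distance. The means were 5623 ± 462 and 7836 ± 711 (SD, n = 3). The limma log2 ratio was −0.48 with a standard error of 0.16, or 0.72 of WT, and its adjusted p was 0.46. The unadjusted limma p was 0.0191. It was between 0.0518 and 0.0682 without *gis5* replicate 3, WT replicate 2 or WT replicate 3, and 0.0555 with the replicate block.

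*psbE* is read together with its neighbours *psbF*, *psbL* and *psbJ*, so these 4 share RNA molecules and are not independent. *psbF*, the beta subunit of the same cytochrome, read 12021, 12766 and 11581 in *gis5* and 13745, 14785 and 14970 in WT, again with no overlap. Its log2 ratio was −0.26 (95% interval −0.59 to 0.08, adjusted p = 0.64 from limma). *psbJ*, a small subunit, read 3949, 6076 and 5388 in *gis5* and 6412, 8496 and 5780 in WT, with *gis5* 2 above WT 3. Its log2 ratio was −0.43 (adjusted p = 0.64 from limma). *psbL*, also a small subunit, did not share this direction in the main values. It read 1805, 2351 and 2123 in *gis5* and 1999, 1923 and 2193 in WT, a log2 ratio of 0.03 (95% interval −0.36 to 0.42). The unit had a median log2 ratio of −0.34, and between −0.39 and −0.25 without any 1 array. Its median SD within genotypes was 0.14, where that of the whole block was 0.54.

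**Figure D4:**
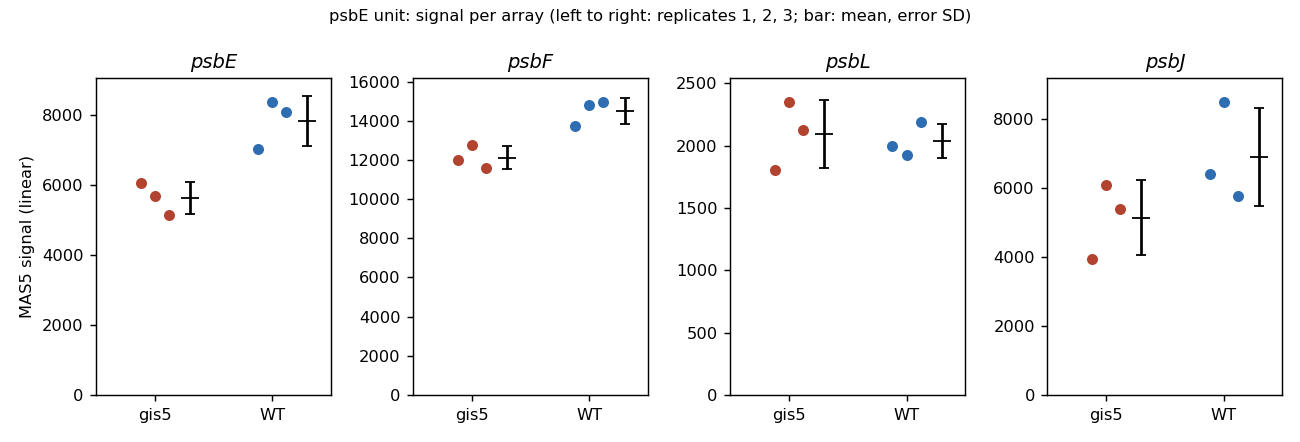
MAS5 signal (linear, from 0) of the 4 genes of the *psbE* unit on each *gis5* (red) and WT (blue) array, with the mean and SD of each genotype beside the points (n = 3). The genotypes do not overlap for *psbE* and *psbF*, and overlap for *psbL* and *psbJ*.

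Several other members of photosystem II varied far more within the genotypes, but not all. The SD within genotypes was 0.24 for *psbI* and 0.31 for *psbH* on the log2 scale, near the 0.30 of *psbJ*. *psbD*, for the D2 protein of the reaction centre, read 398, 720.2 and 235 in *gis5* and 164, 702 and 404 in WT. Its log2 ratio of 0.17 (95% interval −1.22 to 1.55) was −0.37 without WT replicate 1 and −0.23 without *gis5* replicate 2. *psbT*, a small subunit, had the largest ratio of the group, 0.79 (standard error 0.52, adjusted p = 0.70 from limma), from signals of 286, 520.2 and 175 in *gis5* and 85.9, 316 and 159 in WT. *psbM* read 19404, 43408 and 41235 in *gis5* and 44559, 28800 and 21213 in WT, and was the 1 member whose highest array was WT 1.

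The 6 members of photosystem I and its assembly were all above 0 (median 0.35), and none passed the test. Without WT replicate 1, 3 of the 6 were above 0 and their median was 0.07. *psaA*, for a large subunit of the reaction centre, read 222, 341 and 114 in *gis5* and 95.5, 292 and 89.8 in WT, with overlap. The other large subunit, *psaB*, had the narrower spread of 25240, 25585 and 22131 in *gis5* and 24492, 28719 and 16040 in WT. Its ratio was 0.11 on the log2 scale (95% interval −0.46 to 0.69). *ycf3*, for an assembly factor of photosystem I, had 0.60 (standard error 0.35, adjusted p = 0.66 from limma) from signals of 2073, 2024 and 1153 in *gis5* and 1148, 1619 and 733 in WT. *psaJ* had the highest ratio of the block, 0.97 (95% interval −0.93 to 2.87), which was −0.04 without WT replicate 1.

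For the cytochrome b6f complex, which links the photosystems, 4 of 6 members were above 0 (median 0.28, and 0.05 without WT replicate 1 or 0.15 without *gis5* replicate 2). *petA*, for cytochrome f, read 4411, 3834 and 3700 in *gis5* and 2592, 4170 and 3218 in WT, a log2 ratio of 0.28 (95% interval −0.22 to 0.78). The 2 genotypes overlapped through WT 2. *petD*, for subunit IV, was dim, at 164, 101 and 56.9 in *gis5* and 14.7, 87.6 and 102 in WT. Its log2 ratio of 0.68 (adjusted p = 0.76 from limma) was 0.06 without WT replicate 1.

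Members of the ATP synthase, which makes ATP from the proton gradient, had a median log2 ratio of 0.02, with 4 of 6 above 0. It was between −0.10 without WT replicate 3 and 0.26 without WT replicate 2, and also below 0, at −0.01, without *gis5* replicate 2. *atpB* and *atpE*, for the beta and epsilon subunits of the catalytic part, gave the most even values of this complex. *atpE* read 40537, 38420 and 35517 in *gis5* and 41017, 42482 and 33324 in WT, with a log2 ratio of −0.02 (95% interval −0.41 to 0.37), and *atpB* had 0.01 (95% interval −0.52 to 0.55). A 2-fold difference of either lies outside these intervals. *atpF* had 0.78 (adjusted p = 0.78 from limma), and 0.01 without WT replicate 1. *atpH*, for the ring subunit, read 1189, 2123 and 840 in *gis5* and 915, 2317 and 437 in WT. Its log2 ratio of 0.39 was −0.18 without WT replicate 3.

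In the NDH complex, which works in cyclic electron flow, 4 of 6 members were above 0 (median 0.20). The median was −0.06 without *gis5* replicate 2 and 0.05 without WT replicate 1, with 3 of 6 above 0 in each case, and 0.53 without WT replicate 2. *ndhF* read 229, 194 and 29.1 in *gis5* and 70.9, 97.9 and 45.9 in WT, a 7.85-fold range among the *gis5* arrays. Its log2 ratio was 0.64 (95% interval −0.90 to 2.18). *ndhC* was the opposite case, with signals of 9621, 10508 and 8865 in *gis5* and 9644, 10820 and 10493 in WT. Its ratio was −0.10 (95% interval −0.45 to 0.26). *ndhB* had 0.70 (adjusted p = 0.68 from limma) and 0.24 without WT replicate 1.

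*rbcL*, for the large subunit of Rubisco, the carbon-fixing enzyme, read 3838, 4555 and 2532 in *gis5* and 3990, 5564 and 4195 in WT. The genotypes overlapped, with *gis5* 3 lowest. The means were 3642 ± 1026 and 4583 ± 856 (SD, n = 3), and limma gave −0.36 on the log2 scale, with a standard error of 0.26 and an adjusted p of 0.73. The 95% interval of −0.98 to 0.27 spans 0.

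All 4 genes of the plastid-encoded RNA polymerase were above 0 (median 0.23), but 2 of 4 without *gis5* replicate 2 (median 0.0090) and 3 of 4 without WT replicate 1 (median 0.10). They had ratios between 0.09 and 0.32 and adjusted limma p of at least 0.78. *rpoA* read 7323, 7255 and 6120 in *gis5* and 4421, 8100 and 5098 in WT. *rpoB*, whose signals of 23.4, 47.2 and 29.1 in *gis5* and 21.6, 35.9 and 23.4 in WT were near the added constant of 16, had 0.18, and −0.01 without *gis5* replicate 2. *rpoC2* had 0.32 (95% interval −0.54 to 1.19).

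Of the 16 named genes for ribosomal proteins, 15 were above 0, namely all 7 of the small subunit (median 0.32) and 8 of 9 of the large (median 0.11). Without *gis5* replicate 2, the small subunit had 5 of 7 above 0 and a median of 0.11, and without WT replicate 3 it had 6 of 7 and 0.07. The large subunit had 5 of 9 above 0 without WT replicate 1 (median 0.03) and without WT replicate 3 (median 0.04). *rps18* read 1619, 1534 and 1505 in *gis5* and 1030, 1430 and 1087 in WT, the only member for which all *gis5* arrays exceeded all WT arrays. The means were 1553 ± 59.0 and 1182 ± 216 (SD, n = 3), and limma gave 0.40 on the log2 scale, with a standard error of 0.18 and an adjusted p of 0.57. With the arrays centred on their medians its groups overlapped. Its neighbour *rpl33* read 4450, 8040 and 6091 in *gis5* and 2973, 5599 and 4346 in WT, a ratio of 0.53 (adjusted p = 0.66 from limma). *rps2* had 0.56 (adjusted p = 0.76 from limma) and *rpl32* had 0.28 (95% interval −0.18 to 0.75).

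The ratios of *rpl14* (0.67) and *rpl16* (0.57) were −0.01 and −0.05 without WT replicate 3. Among the other genes, *accD*, for a subunit of the acetyl-CoA carboxylase of fatty acid synthesis, read 1023, 1307 and 594 in *gis5* and 338, 1344 and 1174 in WT. Its log2 ratio of 0.18 was −0.43 without WT replicate 1. *clpP*, for a subunit of the plastid protease, read 11571, 10529 and 10431 in *gis5* and 9952, 13876 and 7815 in WT, a ratio of 0.08 (95% interval −0.47 to 0.63). *ccsA*, a gene of cytochrome c synthesis, had 0.31, and *ycf2* had 0.43, both with an adjusted limma p of 0.80. Of the unnamed members, 244990_s_at had 0.72 (adjusted p = 0.62 from limma) and 244979_at −0.24 (adjusted p = 0.77 from limma).

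Genes read into the same RNA followed each other only in part. Over the 6 arrays, the median Pearson correlation was 0.67 for the 93 pairs of members within 1 of 13 transcription units and 0.50 for the other 2118 pairs. This is a description over pairs that share arrays, and the units of textbook knowledge were checked only for adjacency in the RefSeq gene order. In the *petL* unit (*petL*, *petG*, *psaJ*, *rpl33*, *rps18*) all 5 ratios were above 0, with a median of 0.53, and 4 of 5 were above 0 without WT replicate 1 (median 0.29). Within this unit *psaJ* and *petL* were low on WT 1, while *petG* read 233 there, its highest WT value. Within the *rpoB* unit, *rpoC1* read 400, 2034 and 2551 in WT and *rpoC2* read 205, 319 and 140, so that WT 3 was the highest WT array of one and the lowest of the other.

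**Figure D5:**
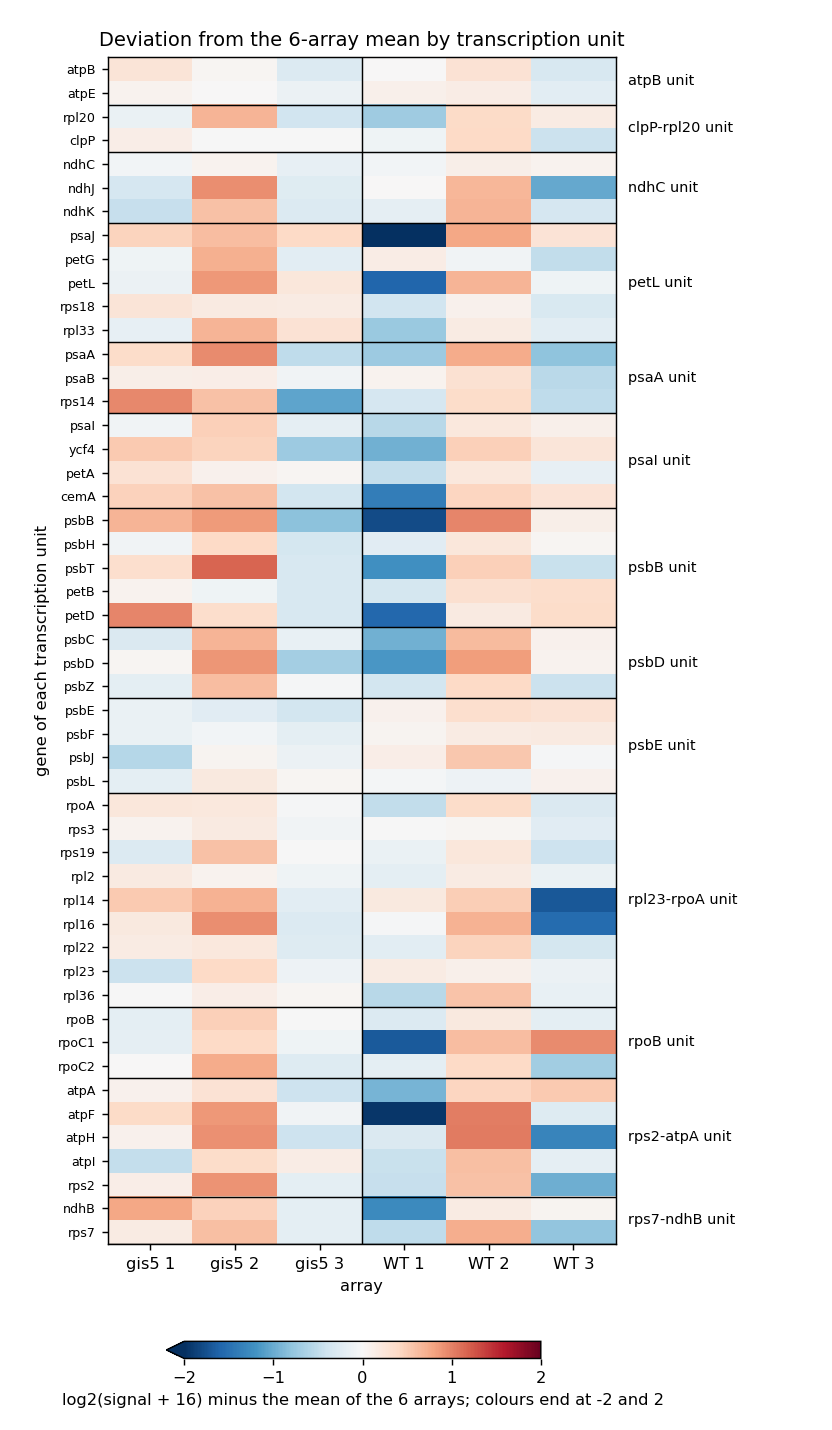
Deviation of each gene of the 13 transcription units from its mean over the 6 arrays, in log2(signal + 16), from blue (below) to red (above), with a line between *gis5* and WT arrays and colours ending at −2 and 2. The *psbE* unit is pale blue or near 0 on most *gis5* arrays and pale red on most WT arrays. The *psaA* unit (medians −0.34 and −0.54) and the *rps7*-*ndhB* unit (−0.89 and −0.37) are low on both WT 1 and WT 3, as are several other units. Both units are also below 0 on *gis5* 3 (−0.51 and −0.20).

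The 5 genes read mainly by the nuclear-encoded polymerase (*accD*, *rpoB*, *rpoC1*, *rpoC2*, *ycf2*) had a median log2 ratio of 0.18, all above 0. The 24 *psa*, *psb*, *pet* and *rbcL* genes of the block had a median of 0.14, 17 above 0. Without WT replicate 1, *accD* was at −0.43 and *rpoC1* at −0.73. No difference between these classes was tested.

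Outside the id range, 13 more probe sets carried a chloroplast gene, 9 of them inside the range of ids used for mitochondrial genes. None passed an unadjusted p of 0.05 in limma, and their median log2 ratio was 0.11, with 10 above 0. The median was −0.15 without WT replicate 1 and −0.04 without *gis5* replicate 2, with 6 above 0 in each case. *psbA*, for the D1 protein of photosystem II, read 5734, 8855 and 5789 in *gis5* and 2837, 10073 and 8114 in WT. Its ratio was 0.11 on the log2 scale, with a standard error of 0.48. *matK*, for the maturase of plastid introns, read 5677, 7522 and 6359 in *gis5* and 2220, 6147 and 5047 in WT, a ratio of 0.66 with a standard error of 0.38 (limma adjusted p = 0.66). WT 1 was the lowest array for both, as for 31 members of the block. By array, these 13 had median deviations of 0.07, 0.50 and −0.22 for *gis5* 1 to 3 and −0.45, 0.34 and 0.04 for WT 1 to 3.

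The mitochondrial block was the range of ids used for mitochondrial genes without the probe sets annotated to the chloroplast. It was not screened for nuclear genes or missing annotations. Its 50 probe sets had a median log2 ratio of 0.06, with 30 above 0 and 1 in each direction at an unadjusted limma p under 0.05. The median turned to −0.03 without *gis5* replicate 2 or *gis5* replicate 3 and to −0.01 without WT replicate 2. Their median deviations of −0.13, 0.29 and −0.11 in *gis5* and −0.08, −0.11 and 0.05 in WT shared the high *gis5* 2 and not the high WT 2. Of these 50, 45 were below the median signal, so that the values of this block are mostly dim.

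Nuclear genes that serve the chloroplast were looked up by locus. A probe set counted only if its gene identifier in the annotation was exactly that of the locus, which matched few of them. A gene without a match may still have a probe set on the array. Of 30 nuclear genes of the photosynthetic complexes 5 were matched, and 0 of these passed an unadjusted p of 0.05 in limma (background 9.05%). All 5 had log2 ratios below 0, between −0.32 and −0.18, and for *PSAE1*, *PSAN*, *PSBW* and *ATPC1* every *gis5* array lay below every WT array (background 6.79%). *PSAN* (AT5G64040), a subunit of photosystem I, read 16365, 17963 and 18176 in *gis5* and 25234, 19552 and 21021 in WT, a ratio of −0.32 (adjusted p = 0.61 from limma). WT 1, lowest for many chloroplast members, was the highest array for *PSAN*. Of 30 nuclear genes of plastid transcription and RNA processing only *RPOTMP* was matched, dim and with a log2 ratio of 0.36 (standard error 0.72). Of the tissue markers, only 1 of 4 for root was matched (*PYK10*), with 0 of 5 for green tissue and 0 of 2 for seed. *PYK10* read 22775, 19247 and 20819 in *gis5* and 14994, 21697 and 22159 in WT. The 5 photosynthesis genes and *PYK10* had their probe sets bright, from 13135 (*PSBW*) to 30731 (*PSAE1*), on all 6 arrays, and the root marker was lowest on WT 1. The part of the tissue makeup in the chloroplast values was not tested.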

How the data were processed

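Biotin-labelled cRNA from 5 µg of total RNA per sample was hybridised to ATH1 arrays. The authors deposited MAS5 signal intensities (MAS5 version not given in the sources used here), 1 column per array, linear and scaled to a mean of about 500.05 after trimming 2% at either end. The paper's own gene list used RMA values of the same arrays, not used here. MAS5 noise is large at low signal, so ratios of dim probe sets are imprecise.

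From these, log2(signal + 16) was computed without further scaling, since the medians of the 6 arrays lay within 9.53% of each other and 10% had been set as the limit. A log2 ratio on this scale understates the change of dim probe sets. After removal of 64 controls, genotype was fitted to 22746 probe sets by limma 3.58.1 (lmFit, then eBayes; R 4.3.3). P-values were adjusted by Benjamini-Hochberg over all of them. The fit was run on simulated data in which probe sets varied independently, so it did not cover members that shift together on an array. An exact permutation test of 3 against 3 arrays cannot go below p = 0.1. The limma p-values set the difference between genotypes against the spread between these replicates, with the variance of each probe set drawn towards that of all probe sets tested.

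Members, lists, gene groups and transcription units were chosen with earlier results of these data known. Named genes were *rbcL*, *psaA*, *psbD*, *rpoB*, *accD*, *clpP* and *ndhF* (*psbA* and *matK* lie outside the block), 2 per group with the smallest p, and the 3 highest and 3 lowest ratios. Others were named, and the actin control probe sets chosen between 2 versions, after their values were seen. Counts and medians of the block carry no test. The values of 1 member are not reported here singly. Alternatives were quantile normalization, median centring, the replicate block, pseudocounts of 1 and 64, 2 filters, a trended and robust variance, array weights and leaving out each array.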

Additional observations from a re-analysis of the deposited data

How the results depend on the processing

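No member reached an adjusted p of 0.05 in limma under any of the 15 alternatives. The smallest adjusted p of a named member was 0.0912, for *psbE* with a trended and robust variance, and that of *psbE* otherwise lay between 0.17 and 0.78. The log2 ratio of *psbE* stayed between −0.55 and −0.41. The count of 1 member at an unadjusted p under 0.05 became 2 with quantile normalization, 2 with a pseudocount of 64, 5 when dim probe sets, those under the median signal, were dropped and 7 with a trended and robust variance, and lay between 0 and 8 when 1 array was left out. The count was 0 without WT replicate 3, 3 without WT replicate 1, 4 without *gis5* replicate 3 and 8 without WT replicate 2, the last all higher in *gis5*. The 1 member whose *gis5* arrays all exceeded WT became 0 with the arrays centred on their medians and lay between 1 and 17 without 1 array (17 without WT replicate 2, 10 without *gis5* replicate 3, 3 without *gis5* replicate 1 and 2 without WT replicate 1). The 2 members below became 1 with quantile normalization and lay between 2 and 7 without 1 array (7 without WT replicate 1, 5 without *gis5* replicate 2, 4 without WT replicate 3). The cause was not tested.

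The median log2 ratio of the block was between 0.09 and 0.22 under the other alternatives and between 0.02 and 0.44 without 1 array. Array weights, which gave 41 members above 0, turned *accD* to −0.091, *psbD* to −0.10 and *clpP* to −0.0026. Leaving out 1 array turned the sign of 37 of the 67 members at least once, among them 20 without *gis5* replicate 2, 16 without WT replicate 1 and 14 without WT replicate 3. Of the named members, this gave ranges of −0.43 to 0.54 for *accD*, −0.18 to 1.00 for *atpH*, −0.12 to 0.30 for *clpP*, −0.035 to 1.6 for *psaJ*, −0.37 to 0.63 for *psbD* and −0.013 to 0.33 for *rpoB*.

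The replicate numbers did not mark a shared effect over all probe sets: deviations of arrays with the same number correlated at −0.06, −0.00028 and −0.04, and over the members alone at −0.22, 0.49 and 0.0067. With the replicate block 3 members had an unadjusted p under 0.05, *rpl33*, *rps2* and *ycf3*, all higher in *gis5*, and none an adjusted p under 0.05. Promoter motifs were not searched. Detection calls were not used here, so it is not known which of the dim members were above background.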
